A study of Mus musculus with 6 samples.

Results

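Leukocyte adhesion molecules are the surface proteins by which a vessel wall catches white blood cells, and 10 of their genes are described here in endothelial cells (ECs) sorted from mouse kidney. They are Sele, Selp, Cd34, Cd44, Icam1, Icam2, Icam4, Vcam1, Pecam1 and Cd99l2, and they were found by gene symbol among the 55401 genes of the count table. All 10 had enough counts to be tested. The comparison is between 3 mice in which Rbpj was deleted from the endothelium (RbpjDEC) and 3 mice in which it was not (CTRL), with 1 library from each mouse.

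Rbpj is the DNA-binding protein that Notch receptors use to switch on their target genes. A leukocyte leaves the blood in steps. Selectins on the endothelium (Sele and Selp) hold it loosely so that it rolls, by binding sugars carried on proteins such as Cd34 and Cd44. Members of the immunoglobulin family (Icam1, Icam2, Icam4 and Vcam1) then bind its integrins and hold it firmly, and proteins at the junctions between ECs (Pecam1 and Cd99l2) take part in its passage through the wall. In resting vessels Icam2 and Pecam1 are known as constitutive proteins, while Sele, Vcam1 and Icam1 are known to be induced by inflammatory cytokines through NF-kB, and Selp is also stored in Weibel-Palade bodies, the secretory granules of ECs.

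Both groups carried floxed Rbpj alleles (Rbpjf/f). The RbpjDEC mice also carried 1 copy of a Cre recombinase that tamoxifen activates, under the Cdh5 promoter (genotype Cre +/-), and the CTRL mice were littermates without it (genotype Cre -/-). All 6 were males given 5 intraperitoneal doses of 1.5 mg tamoxifen at 8 weeks of age, so tamoxifen was common to both groups and Cre was not. Kidneys were taken 12 weeks after induction, and the labels give an age of 21 weeks, which is above the sum of these times. Because Cdh5 is active in ECs of all vessel types, lymphatic vessels included, the deletion was not limited to 1 kind of vessel. Cells were kept when positive for CD31, the protein of Pecam1, and negative for CD45, the protein of Ptprc. The sort thus selected on the protein of Pecam1, and its effect on the RNA level of Pecam1 was not tested.

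Library totals lay between 39649171 and 47726850 counts. Levels are given as CPM, the counts scaled to library size, and the floor of 3 counts came to 0.0629 to 0.0757 CPM, which covers counting error only. CTRL 1 stood apart because it detected 33764 genes, whereas each other library detected 25629 to 26785. Rbpj itself, the targeted gene, had 1127, 1408 and 1259 counts in CTRL and 1294, 1094 and 1187 in RbpjDEC (log2 fold change -0.05, adjusted p = 0.793), and since the counts cover the whole gene they do not show its floxed part. Of the pan-endothelial markers 12 of 12 were detected, led by Kdr, and their summed level was 26861 to 30111 CPM in CTRL and 24935 to 25266 CPM in RbpjDEC, with 0 of 12 called by edgeR, where 1.13% of all genes tested were called, 6 of 12 at an unadjusted p under 0.05, where 17.5% of all genes were, and a median log2 fold change of -0.18. Of 16 leukocyte markers 7 were tested and 0 were called (4 at an unadjusted p under 0.05, beside the same shares of 1.13% and 17.5%), their sum was 7.54 to 21.4 CPM in CTRL and 6.29 to 8.76 CPM in RbpjDEC, and the T cell genes Cd3e and Cd3d were at 0 in every library.

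Promoter sequence was at hand for 7 of the 10 genes (RefSeq, GRCm38.p6), and 4 of these are shown as examples. Icam4 is the gene whose count differed, and Icam1 lies directly before it on the same strand. Sele, like Cd44, which is not shown, carries both motifs that were searched. Cd99l2 carries, of the 7, the most copies of the Rbpj motif. Each run is the sequence before the transcription start, written 5′ to 3′ on the strand of the gene. The windows are chr9:21029182-21029372 for Icam4, which is shorter at 191 bases, chr9:21015690-21015939 for Icam1 and chr1:164047984-164048233 for Sele, all on the plus strand, and chrX:71492850-71493099 on the minus strand for Cd99l2. Capitals mark TGGGAA, the core bound by Rbpj, and a loose form of the NF-kB site, GGG and CC with any 5 bases between them, each searched on both strands.
Icam4: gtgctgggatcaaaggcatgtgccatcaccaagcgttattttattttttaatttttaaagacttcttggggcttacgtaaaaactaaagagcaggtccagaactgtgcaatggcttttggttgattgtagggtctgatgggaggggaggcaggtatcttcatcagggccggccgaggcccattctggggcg
Icam1: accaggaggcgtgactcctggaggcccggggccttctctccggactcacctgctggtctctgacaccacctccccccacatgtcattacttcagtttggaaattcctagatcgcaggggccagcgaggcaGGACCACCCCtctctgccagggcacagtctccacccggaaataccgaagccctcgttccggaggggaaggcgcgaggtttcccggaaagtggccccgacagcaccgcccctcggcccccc
Sele: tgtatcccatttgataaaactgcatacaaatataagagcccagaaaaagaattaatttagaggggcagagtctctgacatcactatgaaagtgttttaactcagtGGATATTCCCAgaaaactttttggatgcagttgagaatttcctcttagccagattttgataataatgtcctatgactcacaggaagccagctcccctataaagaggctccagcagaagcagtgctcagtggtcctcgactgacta
Cd99l2: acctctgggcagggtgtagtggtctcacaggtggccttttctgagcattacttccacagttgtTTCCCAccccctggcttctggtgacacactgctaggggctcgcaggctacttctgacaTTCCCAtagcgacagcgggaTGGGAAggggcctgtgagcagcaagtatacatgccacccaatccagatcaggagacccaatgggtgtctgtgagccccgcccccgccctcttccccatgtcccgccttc
The Rbpj core was in 3 of the 7 windows (Sele, Cd44 and Cd99l2) and in 21.6% of 32851 RefSeq promoter windows of 250 bases. The NF-kB form was in 5 of the 7 (Sele, Selp, Cd34, Cd44 and Icam1) and in 45.8% of all windows. In Sele the capitals are a single run because the 2 motifs overlap. The Icam4 window held neither, where 17.1% of all windows cut to 191 bases held the Rbpj core and 35.4% the NF-kB form. The Icam4 window starts 364 bases after the annotated end of Icam1. A match of letters is a description of the sequence and does not show that a factor was bound.

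Of the 10 adhesion molecules, Icam4 rose in RbpjDEC, 2.50-fold, and the other 9 did not pass an adjusted p of 0.05. This is 1 of 10, where 209 of the 18438 genes tested (1.13%) were called, 106 of them higher (0.575%) and 103 lower (0.559%). Without adjustment 4 of the 10 had a p under 0.05, against 17.5% of all genes. Icam4 was the one of these with a higher value, while Cd44, Icam2 and Cd99l2 had lower values. The fitted log2 fold change was below 0 in 7 of the 10 and above 0 in 3, with a median of -0.16, against a median of 0.01 over all genes tested. Without CTRL 1 it was below 0 in 6 of the 10, with a median of -0.09. In bulk RNA, fewer cells that express a gene and less RNA of it in each cell cannot be told apart.

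**Figure D1:**
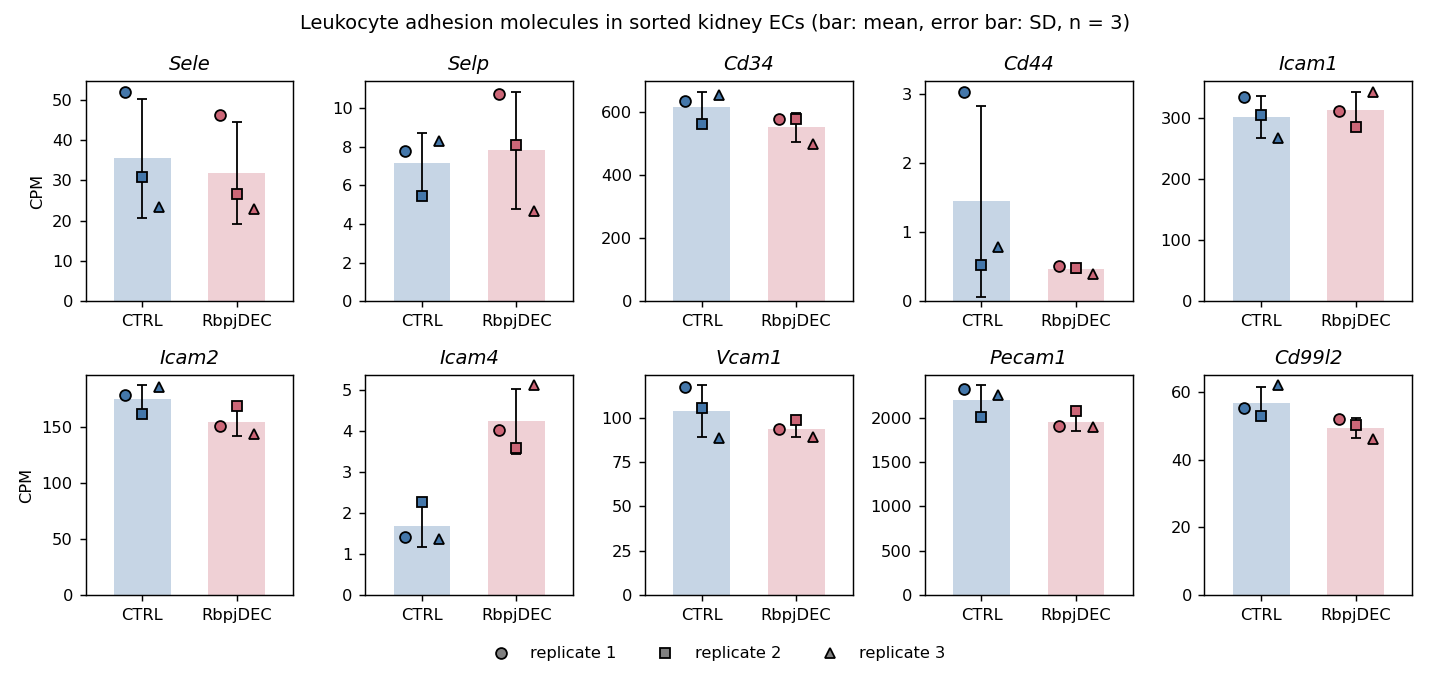
Level of each of the 10 adhesion molecules in CPM (vertical axes, each starting at 0), with a bar for the mean of each group, an error bar for the SD of 3 mice and a symbol for each replicate number. In the Icam4 panel all 3 RbpjDEC mice lie above all 3 CTRL mice, and in the Cd44 panel the CTRL mean rests on 1 mouse at 3.04 CPM.

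Scaled to exon length, the levels spanned a wide range and kept nearly the same order in both groups. In CTRL, Pecam1 stood first with 353 CPM per kilobase of exon, followed by Icam2 (91.9), Cd34 (84.6) and Icam1 (69.4). A middle tier held Sele (12.2), Vcam1 (11.7) and Cd99l2 (11.6), and the lowest tier held Selp (1.62), Icam4 (1.52) and Cd44 (0.214). The ranges over 3 mice overlapped between Icam2 and Cd34, between Sele and Vcam1, between Vcam1 and Cd99l2, and between Selp and Icam4, so these neighbours in the order did not differ beyond their spread. In RbpjDEC the same 4 genes led, with 314, 81.0, 75.5 and 71.9 CPM per kilobase. There the ranges of Cd34 and Icam1 overlapped too, whereas Icam4, at 3.82, lay above Selp, at 1.77, with no overlap. Pecam1 made up 60.4% to 63.7% of the summed CPM of the 10 genes in each library, and was number 27 of all genes by mean CPM, while Cd44 was number 14255.

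Among the rolling molecules, Sele encodes E-selectin and lies on chromosome 1 (GRCm38, chr1:164048234-164057677, plus strand). It had 52.1, 30.9 and 23.3 CPM in CTRL and 46.3, 26.5 and 22.8 CPM in RbpjDEC. The groups overlapped fully, and the spread within each was wider than the gap between them, with a coefficient of variation of 42.0% in CTRL and 39.6% in RbpjDEC. The highest of the 6 libraries was 2.28 times the lowest. The log2 fold change of -0.15 had a 95% confidence interval from -1.30 to 1.00 (adjusted p = 0.897), so a halving and a doubling of Sele both lie within the interval.

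Selp encodes P-selectin and lies further along the same chromosome (chr1:164115264-164150026, plus strand). It had 7.78, 5.43 and 8.29 CPM in CTRL and 10.7, 8.06 and 4.64 CPM in RbpjDEC. Both the highest and the lowest library were RbpjDEC, so the groups overlapped. The log2 fold change was 0.13 (95% interval -0.54 to 0.79, adjusted p = 0.860). Directly after Selp on the same strand lies F5, which encodes coagulation factor V and had a log2 fold change of -0.72 (adjusted p = 0.576). Of the 38-base stretches of Selp, 12.0% were also found in antisense genes.

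Cd34, a mucin-like glycoprotein that can present selectin ligands, lies on the same chromosome (chr1:194938819-194961279, plus strand) and was the second most abundant of the 10 by CPM. It had 635, 562 and 652 CPM in CTRL and 577, 576 and 498 CPM in RbpjDEC. CTRL 2 lay below 2 of the RbpjDEC mice, so the groups overlapped. Its fold change was 0.893 (95% interval 0.785 to 1.02, adjusted p = 0.347). An antisense gene, Gm16897, shares 148 exonic bases with it and had a log2 fold change of 0.45 (adjusted p = 0.404).

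Cd44, a hyaluronan receptor that can also carry selectin ligands (chr2:102811141-102901665, minus strand), was the least abundant. Its counts were 122, 25 and 33 in CTRL and 23, 20 and 16 in RbpjDEC, or 3.04, 0.53 and 0.78 CPM against 0.51, 0.48 and 0.40 CPM. All RbpjDEC mice lay below all CTRL mice, which was so for 11.6% of all genes tested, but CTRL 1 alone was 3.89 times the next highest library. The log2 fold change of -1.63 (95% interval -3.01 to -0.25) had an adjusted p of 0.213, and without CTRL 1 it was -0.50 (adjusted p = 0.723). CTRL 1 was also the library with the highest summed level of the 16 leukocyte markers, 21.4 CPM against 7.54 and 12.7 CPM in the other CTRL mice and 6.29 to 8.76 CPM in RbpjDEC. Cd44 is also abundant on leukocytes, and the part these cells had in its count was not tested.

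**Figure D2:**
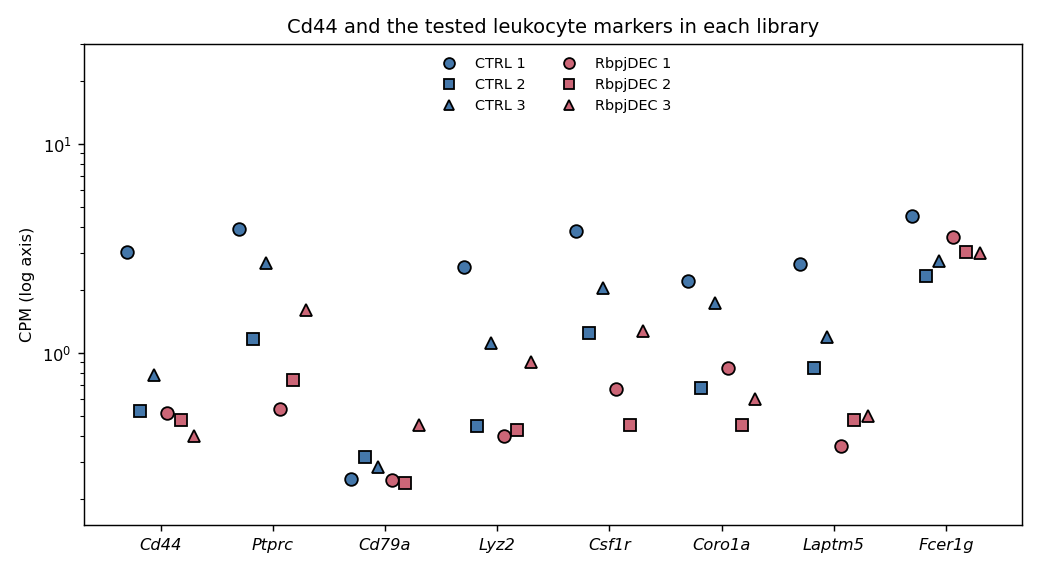
Level of Cd44 and of the 7 leukocyte markers with enough counts to be tested (CPM on a log axis), with 1 symbol per library and colours for the groups. CTRL 1, the blue circle, is the highest library for Cd44 at 3.04 CPM and for 6 of the 7 markers.

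Among the molecules of firm adhesion, Icam1 encodes the endothelial ligand of the leukocyte integrins LFA-1 and Mac-1 (chr9:21015985-21028817, plus strand). It had 335, 305 and 267 CPM in CTRL and 311, 286 and 344 CPM in RbpjDEC. The groups overlapped throughout. Its fold change was 1.04 with a 95% interval from 0.897 to 1.20 (adjusted p = 0.816), so a rise above 1.20-fold lies outside the interval.

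Icam2, a constitutive endothelial ligand of LFA-1 (chr11:106377656-106388075, minus strand), had 178, 162 and 185 CPM in CTRL and 151, 168 and 143 CPM in RbpjDEC. The groups overlapped because RbpjDEC 2 lay above CTRL 2. The fold change was 0.882 (95% interval 0.781 to 0.996), with an unadjusted p of 0.0434 and an adjusted p of 0.265.

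Vcam1, the endothelial ligand of the integrin VLA-4 (chr3:116109949-116129688, minus strand), had 117, 105 and 88.3 CPM in CTRL and 93.5, 98.8 and 89.1 CPM in RbpjDEC. CTRL 3 was the lowest of all 6 libraries. The fold change was 0.906 (95% interval 0.781 to 1.05, adjusted p = 0.477). In this fit the interval leaves out a rise above 1.05-fold in these sorted cells as a whole. The log2 fold change of -0.14 was -0.10 with library size scaling alone and -0.05 without CTRL 1, so the bound depends on scaling and libraries.

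Icam4, known as the Landsteiner-Wiener glycoprotein of red blood cells and a ligand of leukocyte integrins, was the gene that rose. It is a short gene (chr9:21029373-21030595, plus strand) with 1110 exonic bases and starts 555 bases after the end of Icam1. Its counts were 57, 108 and 58 in CTRL and 181, 150 and 205 in RbpjDEC, or 1.42, 2.28 and 1.37 CPM against 4.04, 3.58 and 5.12 CPM. The lowest RbpjDEC mouse lay above the highest CTRL mouse, a separation in this direction that 11.4% of all genes tested showed. The means were 1.69 ± 0.51 CPM in CTRL and 4.24 ± 0.79 CPM in RbpjDEC (SD, n = 3). The log2 fold change was 1.32 with a standard error of 0.267 (2.50-fold, 95% interval 1.67 to 3.74), and edgeR's quasi-likelihood test gave an adjusted p of 0.0423. The call rested on the full set of mice. It was lost in 5 of the 6 fits that left out 1 library (adjusted p = 0.0563 to 0.172, the highest without CTRL 3) and was kept without CTRL 2 (adjusted p = 0.0159), while the log2 fold change stayed between 1.16 and 1.59.

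**Figure D3:**
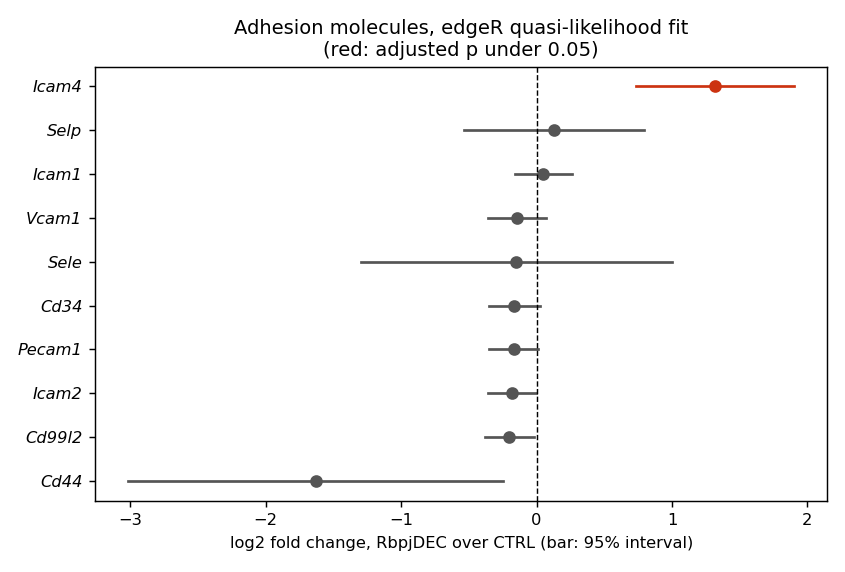
Log2 fold change of each adhesion molecule, RbpjDEC over CTRL (horizontal axis), with a bar for its 95% interval from edgeR's quasi-likelihood fit. Icam4, in red at 1.32, is the gene with an adjusted p under 0.05, and the narrow intervals of Icam1, Icam2, Vcam1, Pecam1, Cd34 and Cd99l2 contrast with the wide ones of Sele and Cd44.

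The genes around Icam4 were read beside it because they lie close by. Gm47079 overlaps its exons, whereas Icam5 does not. Icam5, which encodes telencephalin, an adhesion molecule known from forebrain neurons, starts 1477 bases after Icam4 on the same strand (chr9:21032073-21039036). It had 36, 114 and 71 counts in CTRL and 199, 170 and 266 in RbpjDEC, again with all RbpjDEC mice above all CTRL mice. Its log2 fold change of 1.59 (95% interval 0.85 to 2.34) had an adjusted p of 0.0529 and did not pass. Gm47079, an antisense gene on the opposite strand (chr9:21028307-21032357), covers all 1110 exonic bases of Icam4 and 511 of those of Icam1. It had 32, 32 and 37 counts in CTRL and 63, 48 and 57 in RbpjDEC (log2 fold change 0.76, adjusted p = 0.244). Of the 38-base stretches of Icam4, 93.4% were also found in Gm47079 on the other strand, against 13.9% of those of Icam1. The library kit marked strand, but the strand setting of the counting is not given in the sources used here, so the count of Icam4 is uncertain to that extent.

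Counts of these genes were also set against those of Icam1 in the same library, as a description. For every 1000 counts on Icam1 there were 4.24, 7.47 and 5.14 on Icam4 in CTRL and 13.0, 12.5 and 14.9 in RbpjDEC. For Icam5 the ratio was 5.62 ± 2.67 in CTRL and 15.9 ± 2.94 in RbpjDEC, and for Gm47079 it was 2.63 ± 0.575 and 4.22 ± 0.268 (SD, n = 3). Since Icam1 itself overlapped between the groups at a fold change of 1.04, these ratios restate the counts given above and are no separate evidence. Mrpl4, a mitochondrial ribosomal protein gene that precedes Icam1, had 93.0 ± 17.4 and 84.1 ± 12.3 (SD, n = 3). Gm26592, an antisense gene over Icam5, had 0, 0 and 1 counts in CTRL and 2, 8 and 4 in RbpjDEC, too few to be tested.

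**Figure D4:**
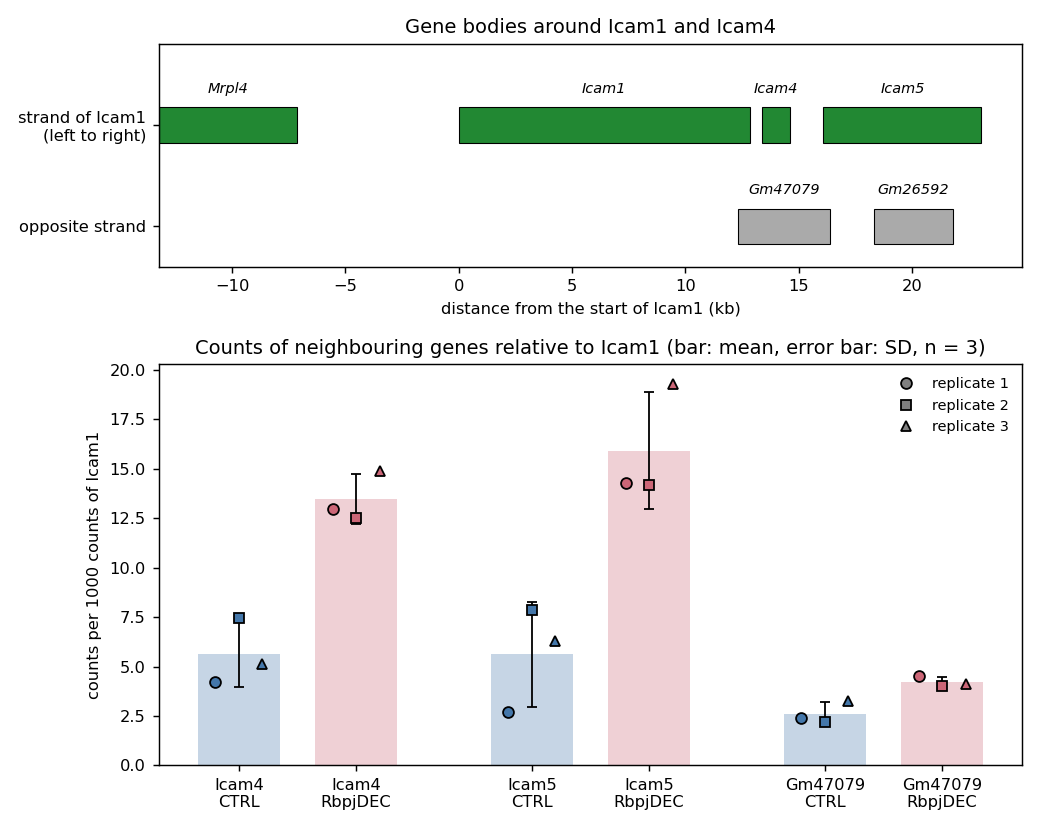
Upper panel, gene bodies around Icam1 and Icam4 by strand, with distance from the start of Icam1 in kilobases on the horizontal axis. Lower panel, counts on Icam4, Icam5 and Gm47079 per 1000 counts on Icam1, with a bar for the group mean, an error bar for the SD of 3 mice and a symbol per mouse, where all RbpjDEC mice lie above all CTRL mice for each gene.

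Since Icam4 is known from red blood cells, 5 erythroid genes (Alas2, Slc4a1, Klf1, Epb42 and Rhag) were looked up after its value was seen. Their summed level was 6.91, 4.01 and 4.64 CPM in CTRL and 1.43, 0.64 and 3.34 CPM in RbpjDEC. The gap between the groups rested on Slc4a1, which collecting duct cells of the kidney also make. Without it the sum was 2.02, 0.84 and 1.47 CPM in CTRL and 1.09, 0.31 and 1.70 CPM in RbpjDEC, and the groups overlapped. Rhag had 0, 1 and 5 counts in CTRL and 0 in all 3 RbpjDEC mice, while Klf1 had 7, 1 and 7 in CTRL and 3, 2 and 14 in RbpjDEC. RbpjDEC 3 was the library with the highest count of both Klf1 and Icam4. CTRL 1 instead had the highest count of Alas2, Slc4a1 and Epb42, and CTRL 3 that of Rhag. Klf1, Epb42 and Rhag had too few counts to be tested. The part of red cells in the count of Icam4 was not tested.

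Among the molecules of transmigration, Pecam1 (chr11:106654217-106750628, minus strand) had 2324, 2010 and 2259 CPM in CTRL and 1901, 2078 and 1889 CPM in RbpjDEC. The groups overlapped because RbpjDEC 2 lay above CTRL 2. Its fold change was 0.890 (95% interval 0.786 to 1.01, adjusted p = 0.316), beside a median log2 fold change of -0.18 over the pan-endothelial markers and of -0.17 for Pecam1 itself.

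Cd99l2, a paralog of CD99 at endothelial junctions that takes part in late transmigration, lies on the X chromosome (chrX:71420060-71492849, minus strand). It had 55.4, 52.9 and 62.0 CPM in CTRL and 51.9, 50.2 and 46.1 CPM in RbpjDEC. All RbpjDEC mice lay below all CTRL mice, by a small margin, which was so for 11.6% of all genes tested. The fold change was 0.871 (95% interval 0.766 to 0.989), with an unadjusted p of 0.0352 and an adjusted p of 0.243. The promoter window of Cd99l2 held 3 copies of the Rbpj core, and their part in its level was not tested.

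Precision differed by gene. The coefficient of variation among 3 mice was between 5.14% and 14.1% in either group for Pecam1, Cd34, Icam1, Icam2, Vcam1 and Cd99l2. It was 30.2% in CTRL and 18.6% in RbpjDEC for Icam4, 21.3% and 39.0% for Selp, and 95.4% and 12.5% for Cd44. The 95% intervals of the fold changes of the 6 steady genes all lay between 0.766 (the lower bound of Cd99l2) and 1.20 (the upper bound of Icam1). Those of the others were wider, from 0.406 to 2.00 for Sele, from 0.689 to 1.73 for Selp and from 0.124 to 0.842 for Cd44.

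The proteins around these molecules were read from 6 lists by role, with 63 genes of which 56 were tested. In edgeR's test 4 of the 56 fell (over all genes 0.559%) and 0 rose (0.575%) at the adjusted threshold, and the median log2 fold change was -0.17. Without adjustment 22 were lower and 4 higher, against 8.62% and 8.88% of all genes. All RbpjDEC mice lay below all CTRL mice for 20 of the 56 (11.6% of all genes tested) and above them for 3 (11.4%).

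Of the selectin ligands and addressins 6 of 9 were tested, 0 passed by edgeR (1.13% of all genes did), 5 had lower values at an unadjusted p under 0.05 (8.62% of all genes did), and the median log2 fold change was -0.32. Podxl, which encodes podocalyxin, a sialomucin related to Cd34 that podocytes also make, had 3378, 2984 and 3335 CPM in CTRL and 2556, 2680 and 2399 CPM in RbpjDEC (log2 fold change -0.35, adjusted p = 0.0678). Cd24a, a small glycoprotein that can bind Selp, had a log2 fold change of -0.35 (adjusted p = 0.0846). The groups did not overlap for either gene. The addressins of lymphoid vessels were close to absent, Madcam1 with 5, 0 and 0 counts in CTRL and 1, 0 and 0 in RbpjDEC, and Glycam1 with 1, 6 and 0 against 0 in all 3 (both named after their counts were seen).

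Of the leukocyte integrins that bind these molecules 4 of 6 were tested and Itga4 fell. It encodes the alpha4 chain of VLA-4, the receptor for Vcam1, and had 325, 236 and 178 counts in CTRL and 73, 59 and 114 in RbpjDEC (log2 fold change -1.56, adjusted p = 0.0498). Itga4 stood at the threshold and did not pass without CTRL 1, CTRL 3, RbpjDEC 1 or RbpjDEC 2 (adjusted p up to 0.213), nor with library size scaling alone (0.0519) or the filter at 1 CPM (0.0523). Over the 7 tested leukocyte markers the median was -1.26 on the log2 scale in the same libraries, and their part in the count of Itga4 was not tested.

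Of 21 other endothelial adhesion and transmigration proteins 19 were tested and Alcam fell, and the list's median was -0.15 on the log2 scale. Alcam encodes CD166 and had 152, 241 and 176 counts in CTRL and 84, 66 and 90 in RbpjDEC (log2 fold change -1.20, adjusted p = 0.0378). The groups did not overlap. The call of Alcam was lost in 4 of 6 fits that left out 1 library (adjusted p up to 0.159, without RbpjDEC 1). Its log2 fold change lay between -1.33 and -1.07 in these fits. Stab2, a scavenger receptor of sinusoidal and lymphatic ECs, had a log2 fold change of -1.17 (adjusted p = 0.0761).

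Of the 12 cytoskeletal anchors Actn1 fell, and the median log2 fold change was -0.11. Actn1 encodes alpha-actinin-1, which links Icam1 and other adhesion molecules to actin, and had 35.5, 33.8 and 30.5 CPM in CTRL and 25.8, 22.8 and 20.5 CPM in RbpjDEC (log2 fold change -0.53, adjusted p = 0.0384). All RbpjDEC mice lay below all CTRL mice. The call of Actn1 was also lost in 4 of 6 fits without 1 library (adjusted p up to 0.134, without CTRL 1), with log2 fold changes between -0.62 and -0.45. Rdx, which encodes radixin, had a log2 fold change of -0.27 (adjusted p = 0.0896). None of the 4 sheddases passed by edgeR, where 1.13% of all genes did (1 at an unadjusted p under 0.05, where 17.5% did), with a median log2 fold change of -0.09.

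Of the 11 Weibel-Palade body genes Vwf fell, and the median log2 fold change was -0.14. Without adjustment 3 were lower and 2 higher at a p under 0.05 by edgeR, against 8.62% and 8.88% of all genes. Vwf encodes von Willebrand factor, which forms the granule in which Selp is stored, and had 51.9, 53.7 and 66.8 CPM in CTRL and 32.9, 35.3 and 34.0 CPM in RbpjDEC. The groups lay well apart. The log2 fold change was -0.75 with a standard error of 0.0997 (adjusted p = 0.00691), and the call was lost without RbpjDEC 1 (adjusted p = 0.0635). Selp, the adhesion molecule of the same granule, overlapped between the groups, and the difference between the changes of the 2 genes was not tested.

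**Figure D5:**
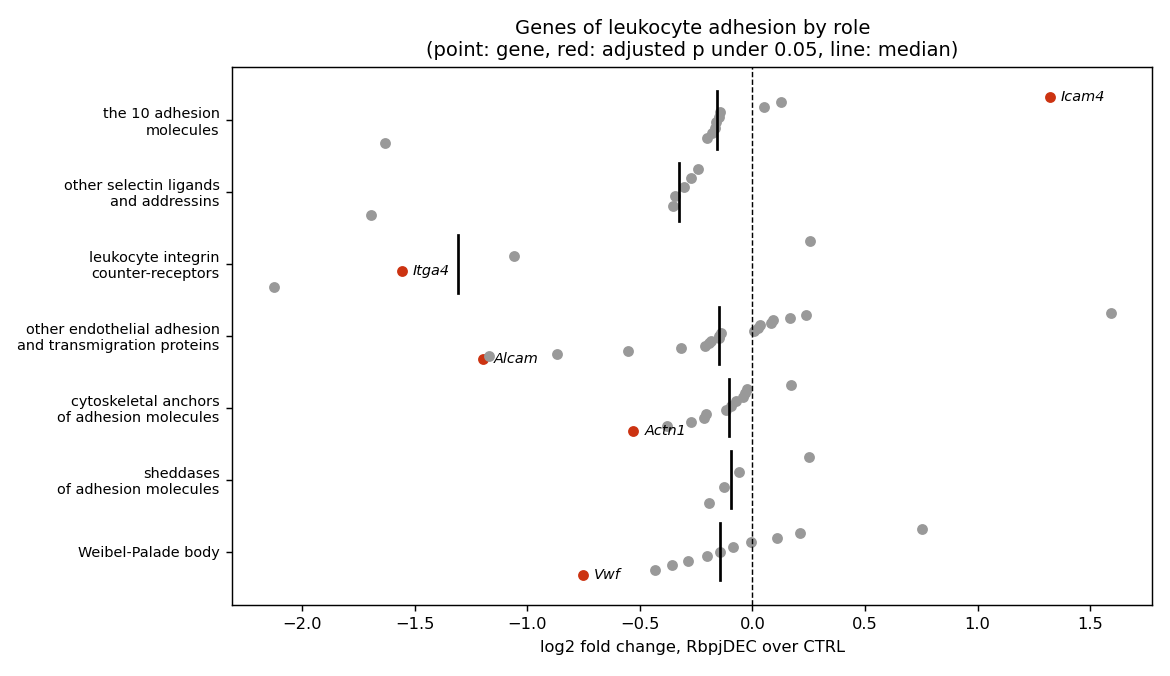
Log2 fold change, RbpjDEC over CTRL (horizontal axis), of the 10 adhesion molecules and of the tested genes of the 6 lists by role, with 1 point per gene, red where the adjusted p was under 0.05 and a vertical line at the median. The medians of all rows lie below 0, the 4 genes that fell are Itga4, Alcam, Actn1 and Vwf, and Icam4 is the one that rose.

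Some mural and fibroblast markers fell beside these genes, and no marker of leukocytes, tubule cells, podocytes or lymphatic ECs passed edgeR's test. Of the 38 tested markers of the 5 cell types that are not endothelial, 0 rose and 5 fell (over all genes 0.575% and 0.559%), and without adjustment 19 had a p under 0.05 (over all genes 17.5%), 3 of them higher and 16 lower. Those that fell were Acta2, Myh11 and Rgs5 of the mural list and Pdgfra and Pi16 of the fibroblast list. With 1 library left out in turn, the calls of Rgs5 and Pdgfra were lost in 4 of 6 fits, those of Acta2 and Myh11 in 3 and that of Pi16 in 2. Rgs5 was also lost with library size scaling alone (adjusted p = 0.0553), and Rgs5 and Myh11 with the filter at 1 CPM (0.0523 and 0.0506). The summed level was 107 to 141 CPM in CTRL and 82.5 to 106 CPM in RbpjDEC for mural cells, whose median was -1.03 on the log2 scale. Without Myh11 the mural sums overlapped, at 78.1 to 106 CPM and 66.5 to 96.0 CPM, and the mural genes Kcnj8 and Abcc9 lay higher in every RbpjDEC mouse (log2 fold changes 0.93 and 1.03, adjusted p = 0.162 and 0.307). The sum of the fibroblast list, 138 to 170 CPM in CTRL against 69.9 to 96.1 CPM in RbpjDEC, was nearly all Pi16. Without Pi16 it was 4.63 to 7.08 CPM against 1.54 to 2.92 CPM, and the marker Dpt was at 0 in every library. Which cells gave the counts of Pi16 was not tested.

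The lymphatic, podocyte and tubule sums, like the mural one, held genes that went different ways. Kcnj8, Abcc9 and the genes named here beside the leading ones were chosen after their values were seen. The lymphatic sum of 622 to 719 CPM in CTRL and 646 to 678 CPM in RbpjDEC was nearly all Flt4, a gene also active in blood vessels. Without Flt4 it was 25.1 to 41.4 CPM and 18.9 to 23.7 CPM. Lyve1, Ccl21a and Mmrn1 lay lower in every RbpjDEC mouse (log2 fold changes -1.19, -1.47 and -1.16, adjusted p = 0.162, 0.0703 and 0.175), while Prox1 lay higher in every one (0.17, adjusted p = 0.542). The podocyte sum of 226 to 247 CPM and 253 to 272 CPM was mostly Synpo, and the median log2 fold change of that list was -0.74. The tubule sum was 337 to 496 CPM and 144 to 500 CPM, led by Slc12a3 in CTRL and by Lrp2 in RbpjDEC. Among the tubule genes the proximal marker Lrp2 had 13.7, 23.3 and 40.4 CPM in CTRL and 29.2, 29.0 and 129.2 CPM in RbpjDEC, so that RbpjDEC 3 stood apart. Umod and Slc12a1, genes of the thick ascending limb, instead lay lower in every RbpjDEC mouse (log2 fold changes -1.19 and -1.25, adjusted p = 0.279 and 0.357). The part of these cells in the values of the adhesion genes was not tested.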

How the data were processed

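RNA of sorted kidney ECs was measured in 3 CTRL and 3 RbpjDEC mice, with groups taken from the sample labels. The authors prepared stranded total RNA libraries, sequenced them in 1 common run, trimmed the reads with Trim Galore 0.6.4, aligned them with STAR 2.6.1d to GRCm38.p6 and counted them per gene of GENCODE M25 with featureCounts (Subread 1.6.4), as given in the methods and the submitters' processing notes. The deposited values are raw counts of reads per gene. Column names were matched to samples through the sample descriptions. Total RNA holds unspliced RNA, and neighbouring or antisense genes can share reads.

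TMM normalization and testing of these counts used edgeR 4.0.16 in R 4.3.3 (filterByExpr, glmQLFit with robust estimation, glmQLFTest, no covariates), with Benjamini-Hochberg adjustment over all 18438 genes kept and a threshold of 0.05. Standard errors and 95% intervals came from the quasi-likelihood F. DESeq2 1.42.0 (Wald test) was an alternative, beside other scalings and filters, the replicate number as a block and each library left out in turn. The fit was tested on simulated data. Levels per kilobase used the union of exons. Positions came from GENCODE M21 on GRCm38, an older release that holds 55141 of the 55401 genes, so positions of single genes can differ from those used for counting.

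The adhesion molecules, lists and tests were chosen with earlier results of these data known. The genes named are all 10 adhesion molecules, the called genes and the 5 next by p of the 6 lists by role, the called and the most abundant genes of the 7 marker lists, near neighbours within 50 kb, and Rbpj. Exceptions are marked in the text, and the results for 2 genes are not reported here. Nothing in the labels says that replicate numbers pair the mice. Correlations of deviations between same-numbered libraries were 0.0231, 0.00916 and 0.00544, and those between the other pairs lay from -0.0628 to 0.0480. With 3 libraries a group these values cannot exclude a pairing. The files hold no batch, and each p-value measures the spread between 3 mice and 3.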

Additional observations from a re-analysis of the deposited data

How the results depend on the processing

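Of 119 fold changes of the 10 adhesion molecules over 12 alternatives, 6 changed sign, all in fits that left out 1 library. Over these fits the log2 fold change of Sele ranged from -0.52 to 0.23 (0.23 without CTRL 1, 0.04 without RbpjDEC 3), that of Selp from -0.17 to 0.39 (-0.05 without CTRL 2, -0.17 without RbpjDEC 1), and that of Icam1 from -0.034 to 0.13 (-0.034 without CTRL 3, -0.019 without RbpjDEC 3). Cd44 had too few counts for the filter at 1 CPM. The number of adhesion molecules called was 1, 2 with no low-count filter (Icam4, and Cd44 with an adjusted p of 0.00759), and 0 to 1 when 1 library was left out, being 1 without CTRL 2. The number of all genes called was 209, and it was 1436 with no low-count filter, 584 with DESeq2's Wald test, 344 with the replicate block, and between 21 (without RbpjDEC 1) and 700 (without CTRL 2) when 1 library was left out. With library size scaling alone 159 were higher and 82 lower, against 106 and 103 with TMM. The median log2 fold change of all genes was -0.10 with DESeq2, which took all 38324 genes with a count, against 0.01 in the reported fit. Of the genes by role 4 were called, 18 with no filter, 12 with DESeq2, and 0 to 9 without 1 library. Of the markers 5 were called, 25 with no filter, 3 with the filter at 1 CPM, 18 with DESeq2, 13 with the replicate block, and 0 to 16 without 1 library. The block left the call of Icam4 in place (adjusted p = 0.0411). The block is given for completeness, since nothing in the labels says that the replicate numbers pair the mice. Icam5 passed with library size scaling alone (adjusted p = 0.0475), with no filter, with DESeq2 (0.000447), with the replicate block (0.0250) and without CTRL 2 (0.0188). The cause of these shifts was not tested. At 3 mice a group, Sele, Selp and Cd44 are limited by the spread between mice, and Icam4, Cd44 and Gm47079 also by their low counts.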
